A study of Mus musculus with 19 samples.

Results

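The clustered protocadherins are the genes of the Pcdha, Pcdhb and Pcdhg clusters, and they were taken here as every row of the count table whose symbol begins with Pcdha and a number or a C-type name, with Pcdhb and a number, or with Pcdhga, Pcdhgb or Pcdhgc. This gave 58 of 50559 genes, with 14 in the alpha cluster, 22 in the beta cluster and 22 in the gamma cluster. Ribosome-bound mRNA was measured in wild-type male mice, 10 wk old and on the C57BL/6J background, that carried ChAT-Cre and 1 RiboTag allele (RiboTag fx/+). Cre recombinase is driven by the gene for choline acetyltransferase, so the hemagglutinin tag sits on the ribosomes of every cholinergic cell of the spinal cord, motor neurons and interneurons together. Mice were kept under 12 h of light and 12 h of dark, and cords were taken every 4 h, at ZT0, ZT4, ZT8, ZT12, ZT16 and ZT20, where Zeitgeber time (ZT) counts hours from the start of the light phase. The 3 biological replicates of each of the 6 time points gave 18 immunoprecipitates, and 1 further library was made from pooled homogenate before precipitation (the input).

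Clustered protocadherins are cadherin-family adhesion proteins of the neuronal surface. Each neuron expresses a small combination of them, chosen largely at random through promoters that are bound by CTCF and cohesin, and matching combinations on opposing membranes bind each other. This lets a neuron recognize its own branches, and it supports the survival of spinal interneurons. An alpha or gamma gene consists of 1 variable exon, which encodes the outside of the cell, the membrane span and the start of the cytoplasmic tail, spliced to 3 constant exons that all genes of the cluster share. A beta gene has no constant exons. The C-type genes (Pcdhac1, Pcdhac2, Pcdhgc3, Pcdhgc4 and Pcdhgc5) lie next to the constant exons, and most of them are chosen by a route that is not random.

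The immunoprecipitates held 6302150 to 22406844 counts in total and the input 15239792. Levels are given as CPM (counts per 1e6 counts of the library size, which was scaled by TMM over all 19 libraries). The 7 cholinergic markers summed to 4260 to 5080 CPM in the immunoprecipitates and to 449 CPM in the input, and 6 of the 7 were at least 2-fold higher with all 18 libraries above the input. The 7 oligodendrocyte markers summed to 1530 to 2910 CPM against 21300 CPM in the input, and the 6 astrocyte markers to 133 to 205 CPM against 2870 CPM. The input is labelled as cholinergic neurons, but its markers are those of the whole cord. No marker of these or of the precursor, microglia, inhibitory neuron, excitatory neuron or endothelial lists was at 0 in all immunoprecipitates.

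The gene models show which members the reads can tell apart. On mm10 (GRCm38) all members lie on chromosome 18, with the alpha genes between 36930285 and 37188897, the beta genes between 37264998 and 37521419 and the gamma genes between 37661775 and 37841873 (RefSeq gene spans). The alpha constant exons are 59, 89 and 2712 bases long, at 37156155 to 37156213, 37159265 to 37159353 and 37184946 to 37187657. The gamma constant exons are 59, 89 and 1971 bases long, at 37825021 to 37825079, 37833265 to 37833353 and 37839903 to 37841873. In the GENCODE M21 transcript matched to each gene, these exons made up 48.6% to 54.9% of an alpha transcript and 41.7% to 45.9% of a gamma transcript, and all 22 beta transcripts had a single exon. Windows of 150 bases, the length of a read, were compared between members. A median of 53% of the windows of an alpha transcript and 43.2% of a gamma transcript also occurred in another member of the cluster. Of the beta transcripts, 18 shared no window with another member. Pcdhb21 and Pcdhb22 shared 306 windows, 6.72% and 4.74% of theirs, and Pcdhb6 and Pcdhb10 shared 6. No window was shared between clusters.

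The deposited values differed between the clusters in the same way. RSEM gives expected counts, which divide a read that fits several genes among them, and a value that is not whole has received part of a read. Of the beta values 0 of 418 were not whole, whereas 139 of 266 alpha values (52.3%) and 166 of 418 gamma values (39.7%) were not. In the input every member had a count. In the immunoprecipitates 123 of 252 alpha values (48.8%), 44 of 396 beta values (11.1%) and 250 of 396 gamma values (63.1%) were 0. Pcdha8 and Pcdha10 carried the same value, to 2 decimals, in 8 immunoprecipitates, at 22 to 540.99 counts. The level of a single alpha or gamma gene in a single immunoprecipitate is therefore a division by the model as well as a measurement, while a beta gene was counted from its own reads.

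Some reads were divided between gamma members and entries that are not members. RefSeq lists 3 further entries, Gm37013, Gm38666 and Gm38667 (synonyms Pcdha4-g, Pcdha6-g and Pcdha7-g), that run from an alpha variable exon to the end of the gamma cluster, the last from 36973802 to 37841873. These are not members by symbol, and since they begin in the alpha cluster their counts may also hold alpha reads. Their sum was 1.88 CPM in the input, where 2 of the 3 were at 0, and 7.58 to 131 CPM in the immunoprecipitates. The alpha members, the gamma members and these 3 entries together added up to a whole number within 0.03 counts in all 19 libraries. The gamma members alone did so within 0.05 counts in 2 libraries and the alpha members alone in 10.

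The gamma sum was uneven over gamma members alone and even once the 3 entries were included. The gamma members alone summed to 59.9 ± 38.9 CPM (SD, n = 18), from 7.94 to 124 CPM, with a coefficient of variation of 64.9%. With the 3 entries the sum was 125 ± 8.51 CPM, from 113 to 139 CPM, with a coefficient of variation of 6.79%. The share of this total that stood on gamma members was 5.7% at its lowest, in ZT8 replicate 3, and 93.4% at its highest, in ZT0 replicate 3, against 99.4% in the input. The beta sum was 62.3 ± 4.86 CPM (53.1 to 72.6) and the alpha sum 82.9 ± 7.76 CPM (70 to 94.8), with coefficients of variation of 7.81% and 9.36%.

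**Figure D1:**
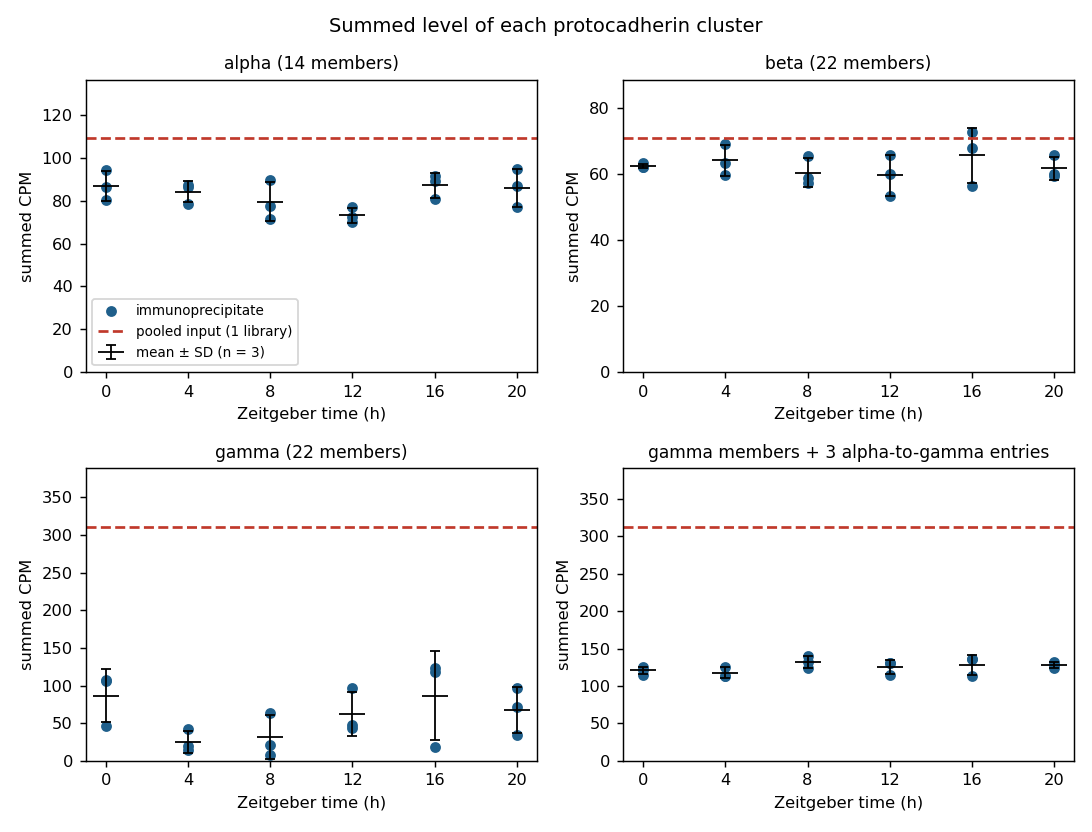
Summed CPM of each cluster (vertical axes) against Zeitgeber time in hours, with each immunoprecipitate as a point, the mean ± SD of 3 libraries in black and the pooled input as a dashed line. The gamma members alone range from 7.94 to 124 CPM, while the sum that includes the 3 alpha-to-gamma entries stays between 113 and 139 CPM.

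Against the pooled input, the gamma cluster was the lowest of the 3 and the beta cluster the closest. With the 3 entries, the gamma sum was 0.401 of the input (125 against 313 CPM), and all 18 immunoprecipitates were below it. The gamma members alone stood at 0.193. All counts of the entries are placed with gamma here and none with alpha. The alpha members, the gamma members and the entries together were at 0.494 of the input (208 against 422 CPM, all 18 below). The alpha sum was 0.759 of the input (109 CPM, all 18 below) and the beta sum 0.88 (70.8 CPM, 17 of 18 below, the exception being ZT16 replicate 2 at 72.6 CPM). The exact 95% Poisson intervals of the input, which cover counting error only, were 305 to 321 CPM for gamma with the entries, 105 to 114 CPM for alpha and 67 to 74.6 CPM for beta. There was 1 input library, so these ratios carry no test. They set ribosome-bound mRNA against RNA of the homogenate, and fewer expressing cells and less mRNA per cell cannot be told apart in bulk tissue. The median log2 ratio over all 17901 genes compared was -0.08.

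No member was enriched over the input, where enriched or depleted means a ratio of mean CPM of at least 2-fold with all 18 immunoprecipitates on that side. Over all genes, 13.8% were enriched and 22.9% depleted. Of the 56 members that passed the filter on low counts (all but Pcdhb1 and Pcdhgb8), 18 were depleted, of which 1 was an alpha, 5 were beta and 12 were gamma genes. The median log2 ratio was -0.62 for the 14 alpha members, -0.53 for the 22 beta members and -2.21 for the 22 gamma members.

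The 5 C-type genes all had lower means in the immunoprecipitates than in the input, and 4 of them were depleted. For the gamma C-type genes, counts on the 3 alpha-to-gamma entries are left out. Gamma members held 5.7% to 93.4% of the sum with these entries in the immunoprecipitates and 99.4% in the input. The part of this in the ratios was not tested. Pcdhgc3, a C-type gene that neurons and glia both use, was the highest member of the input at 72.8 CPM (exact 95% Poisson interval 69 to 76.7), and in the immunoprecipitates it was at 0 CPM in the lowest library, 4.15 CPM in the median one and 20.5 CPM in the highest. Its log2 ratio was -3.79. Pcdhac2, the isoform that serotonergic axons need for their spacing, was the highest alpha gene of the input at 39.7 CPM, or 36.4% of the alpha counts, and lay at 0, 1.66 and 14.5 CPM (log2 ratio -3.46). All 18 immunoprecipitates were below the input for both genes. Pcdhgc5 went from 13.5 CPM to 0, 0 and 6.18 CPM (log2 ratio -4.16).

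Pcdhgc4, the gamma isoform that interneuron survival depends on, had 26.4 CPM in the input and 0, 5.24 and 16.4 CPM in the lowest, median and highest immunoprecipitate (log2 ratio -2.17, all 18 below). It was at 0 in 3 immunoprecipitates, fewer than any other gamma gene. Pcdhac1 had 5.15 CPM in the input and was at 0 in 13 immunoprecipitates, with 13.2 CPM in the highest (log2 ratio -1.42, 15 of 18 below). The 4 C-type genes other than Pcdhac1 were thus below the input in every library.

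**Figure D2:**
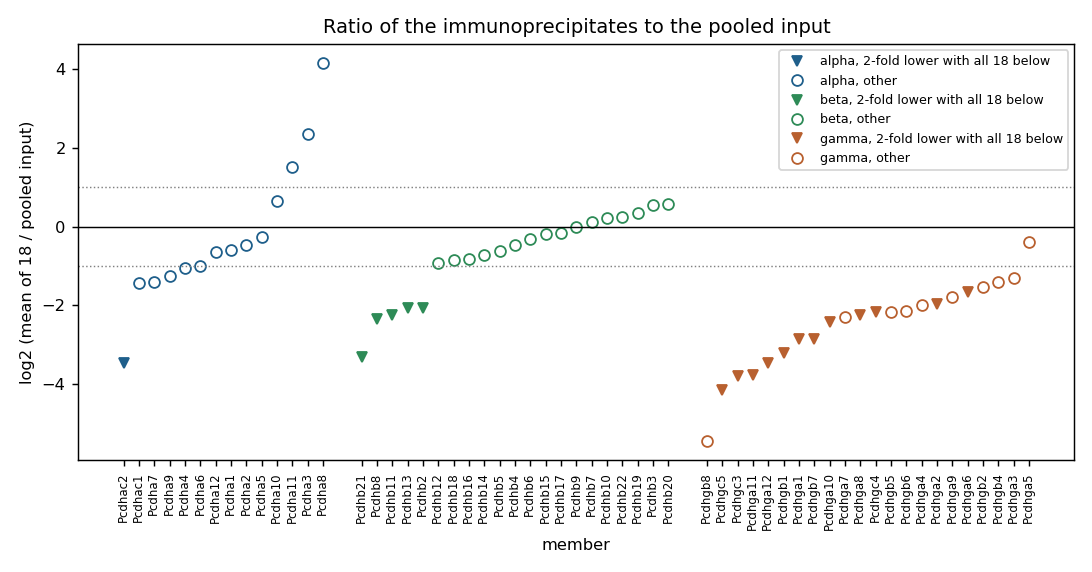
Log2 of the mean CPM of 18 immunoprecipitates over the pooled input (vertical axis) for each member, ordered within its cluster, with filled triangles for genes at least 2-fold lower with all 18 below the input and dotted lines at 2-fold. The 12 depleted gamma genes and Pcdhac2 lie far down. Of the beta genes, 5 lie at a log2 ratio of -2.06 or lower, and the others run from 0.56 (Pcdhb20) to -0.94 (Pcdhb12). Pcdhb1 has no immunoprecipitate count and is not drawn.

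The beta genes were counted from reads that are nearly all their own. Pcdhb20 was the highest, at 10.9 ± 1.71 CPM (SD, n = 18), and the top beta gene in 17 of 18 immunoprecipitates. Pcdhb17 followed at 8.1 ± 1.35 CPM and Pcdhb22 at 5.87 ± 1.15 CPM. In the input the top gene was Pcdhb17, with 12.7% of the beta counts. Pcdhb20 lay between 7.66 and 13.5 CPM, above the input value of 7.35 CPM (6.18 to 8.68) in 18 of 18 libraries (log2 ratio 0.56), and its lowest libraries were within the counting interval of the input. Pcdhb3 had the next highest ratio (log2 0.55), at 2.68 to 6.37 CPM against 2.96 CPM (2.24 to 3.85), with 17 of 18 above. Of the 21 beta genes with an immunoprecipitate count, 6 had a mean above the input, and 3 did when libraries were scaled by their totals, which lowers the median of all genes to -0.41. Pcdhb7, Pcdhb10 and Pcdhb22 are those that changed side.

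Levels of different genes can be compared per length, since the beta genes have no introns in the GENCODE models. Pcdhb20 had 3.2 ± 0.502 CPM per kb of RefSeq gene length, Pcdhb17 2.48 ± 0.412, Pcdhb22 1.91 ± 0.375 and Pcdhb9 1.55 ± 0.58. The next genes, Pcdhb7, Pcdhb10 and Pcdhb3, stood at 1.36, 1.32 and 1.15 CPM per kb. The remaining 15 ranged from 0.741 CPM per kb for Pcdhb14 down to 0.0235 for Pcdhb21 and 0 for Pcdhb1. Of the 21 neighbouring pairs in this order, 4 differed in mean by at least the SD of their difference over the 18 libraries, namely Pcdhb20 over Pcdhb17, Pcdhb17 over Pcdhb22, Pcdhb3 over Pcdhb14 and Pcdhb5 over Pcdhb16. No pair kept its order in all 18. The 5 highest genes per kb in the immunoprecipitates were also the 5 highest in the input, with the first 2 exchanged. The order depends on the length used. Per kb of the matched GENCODE transcript, an alternative chosen after seeing the data, Pcdhb20 (3.05) and Pcdhb17 (1.74) were still first, while Pcdhb22 (0.888) came 7 and Pcdhb14 (0.293) 14 in the order, since their transcripts are longer there (6609 and 8695 bases against 3067 and 3438).

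**Figure D3:**
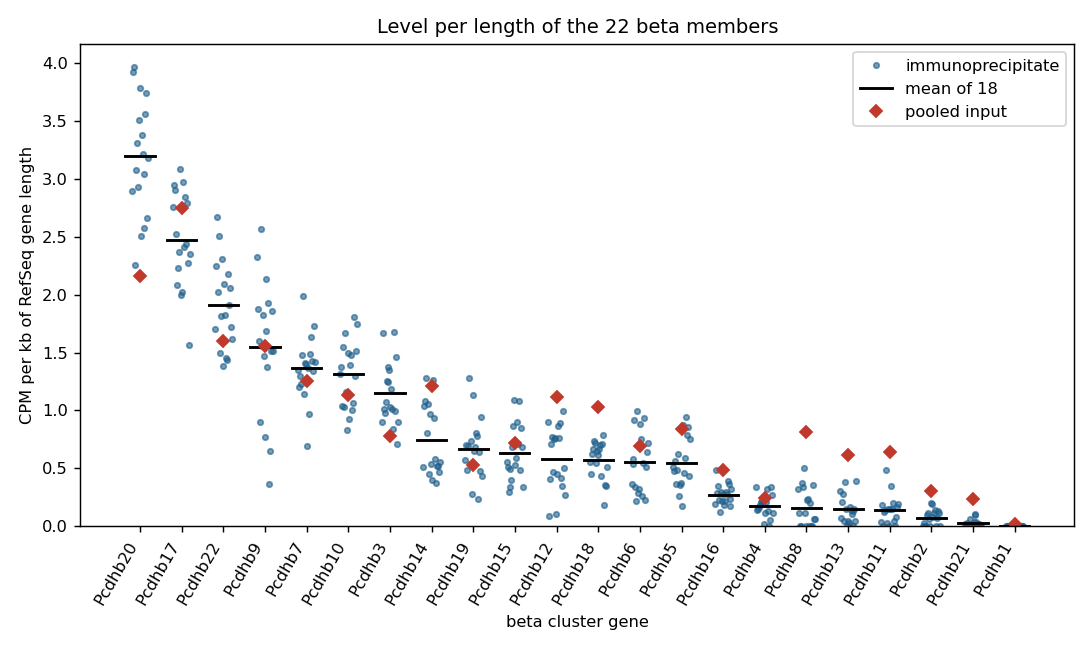
CPM per kb of RefSeq gene length (vertical axis) for the 22 beta genes in order of their mean, with the 18 immunoprecipitates as points, their mean as a bar and the pooled input as a diamond. Pcdhb20 lies above its input value in every library. The depleted genes Pcdhb8, Pcdhb13, Pcdhb11, Pcdhb2 and Pcdhb21 lie below theirs in every library, and so do Pcdhb12, Pcdhb18 and Pcdhb1.

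Of the 21 beta genes that passed the filter, 5 were depleted, a share close to the 22.9% of all genes. Pcdhb8 had 1.9 CPM in the input and 0 to 1.19 CPM in the immunoprecipitates (log2 ratio -2.34), Pcdhb11 2.33 CPM and 0 to 1.74 CPM (-2.24), Pcdhb13 2.27 CPM and 0 to 1.43 CPM (-2.07), Pcdhb2 0.846 CPM and 0 to 0.545 CPM (-2.06), and Pcdhb21 0.635 CPM and 0 to 0.275 CPM (-3.31). All 18 immunoprecipitates were below the input in each case. These genes rest on 12 to 44 counts in the input. The GENCODE transcript of Pcdhb21 shares windows with that of Pcdhb22, but every value of both genes was whole. Pcdhb1 had 1 count in the input and 0 in all 18 immunoprecipitates, where 3 counts over all libraries would be 0.0114 CPM, and the input value of 0.0529 CPM has an exact 95% Poisson interval that starts at 0.00134 CPM, so a difference was not detectable at this depth.

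Single alpha genes ranged from 0 to a large part of the alpha counts, library by library. In an immunoprecipitate 3 to 13 of the 14 alpha genes had a count (median 6), and the highest gene of the library held 16.2% to 80.5% of the alpha counts (median 38.9%). The highest gene was one of 9 different genes, with ties given to Pcdha10. Pcdha10, Pcdha3 and Pcdha11 were each the highest in 4 libraries. In ZT4 replicate 1 and ZT16 replicate 3 Pcdha10 and Pcdha8 shared the highest value. Pcdha3 had the highest mean, 18.7 ± 20.8 CPM, with 0 in 4 libraries and 62.1 CPM in the highest. Pcdha11 followed at 11.2 ± 17 CPM and Pcdha10 at 11 ± 11 CPM, and Pcdha6 and Pcdhac1 were lowest at 1.62 ± 1.87 and 1.92 ± 3.73 CPM. The SD reached or exceeded the mean in all 14 genes. The ratios of Pcdha3 (log2 2.34, 14 of 18 above) and Pcdha11 (1.51, 7 of 18 above) to the input were the highest among alpha genes with at least 20 input counts, and for neither were all 18 libraries on 1 side.

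Single gamma genes behaved likewise. An immunoprecipitate had 1 to 21 of the 22 gamma genes with a count (median 5.5), and its highest gene held 10.3% to 100% of the gamma member counts. The highest means were those of Pcdhgc4 (5.85 ± 4.98 CPM), Pcdhga5 (5.28 ± 9.93) and Pcdhgc3 (5.26 ± 5.7), and the lowest those of Pcdhgb8, which RefSeq lists as a transcribed pseudogene, at 0.00615 CPM, and Pcdhga12 at 0.667 ± 1.1 CPM. Pcdhga5 (log2 ratio -0.39) and Pcdhga3 (-1.32) had the ratios nearest to the input. All 22 gamma genes had a mean below the input, against 52.3% of all genes, and reads that stand on the 3 alpha-to-gamma entries are not part of these means. With the entries added, the cluster as a whole was still 2.49-fold lower than the input.

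The number of alpha and gamma members at 0 differed widely among libraries of the same time point. Of these 36 members, 2 were at 0 in ZT16 replicate 2 and 31 in ZT8 replicate 3, with a median of 24. The ZT0 replicates had 7, 26 and 5 members at 0, those of ZT4 24, 28 and 26, and those of ZT8 24, 27 and 31. The ZT12 replicates had 27, 22 and 14, the ZT16 replicates 14, 2 and 29, and the ZT20 replicates 23, 17 and 27. All libraries of ZT4 and ZT8 therefore had 24 or more, while each other time point held at least 1 library below 24 and 1 above it.

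This number followed the first principal component of the 18 immunoprecipitates, which was computed on log2 CPM of 9211 other genes, held 52.8% of the variance and rose with the ribosomal protein genes (60 of 74 correlated with it above 0.5). Pearson's r was 0.79 (p = 0.00015) and Spearman's rho 0.872 (p = 2e-05) in permutation tests with 100000 resamples, two-sided, over n = 18 libraries. The values adjusted over the 4 relations computed were 6e-04 and 8e-05. Without the 2 libraries farthest from the median r was 0.853, and within time points, after removing their means, it was 0.71. For the total count r was -0.314 (permutation p = 0.2, adjusted 0.35, -0.286 without its 2 farthest libraries, -0.434 within time points) and rho -0.122 (permutation p = 0.63, adjusted 0.63). For the oligodendrocyte marker sum r was -0.113 (permutation p = 0.66, adjusted 0.66) and rho -0.343 (permutation p = 0.16, adjusted 0.21), but r was -0.638 without its 2 farthest libraries and 0.326 within time points. For the cholinergic marker sum r was -0.284 (permutation p = 0.26, adjusted 0.35, -0.154 without its 2 farthest libraries, -0.0875 within time points) and rho -0.475 (permutation p = 0.049, adjusted 0.098). What sets the first component was not tested.

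**Figure D4:**
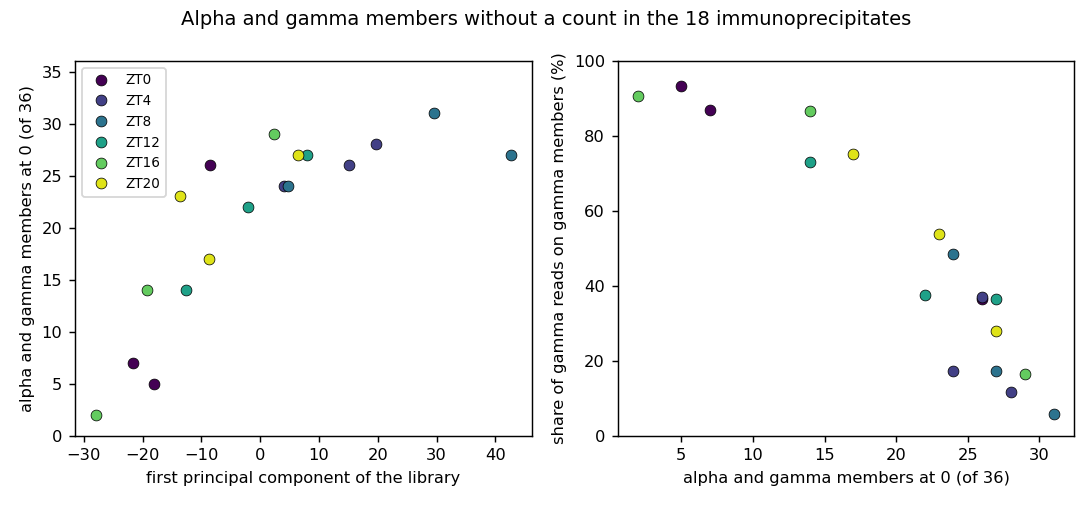
Left, the number of alpha and gamma members without a count (of 36) against the first principal component of the library. Right, the percentage of the summed counts of gamma members and the 3 alpha-to-gamma entries that stood on gamma members, against that number. Each immunoprecipitate is 1 point coloured by Zeitgeber time. Libraries with few members at 0 lie at low values of the component and have most of this sum on gamma members. The number at 0 runs from 2 in ZT16 replicate 2 to 31 in ZT8 replicate 3.

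Whether the members followed the time of day was asked with JTK_Cycle, the method of the study, which was recomputed here, and with count models. For this time course the paper reported a far larger share of genes as rhythmic by JTK_Cycle than the recomputed test called. The reason for that difference was not tested. JTK_Cycle, adjusted over all genes, called 0 of the 54 members tested (14 alpha, 19 beta and 21 gamma) at 0.05, against 0.0385% of all 15572 genes. With adjustment within the gene alone it called 0 members and 15.8% of all genes, and before any adjustment the best template had p under 0.05 for 18 members (33.3%) and for 48.5% of all genes. The lowest JTK_Cycle adjusted p was 0.417 among beta genes, that of Pcdhb11. A 24-h cosinor in edgeR called 4 members against 6.24% of all genes, namely Pcdha1, Pcdhga7, Pcdhga8 and Pcdhga12, with edgeR adjusted p of 0.0373 to 0.0495. In the rounded counts that were fitted, these genes were at 0 in 11 to 13 of 18 immunoprecipitates. The edgeR test of any difference among the 6 time points called 5 members, Pcdha12, Pcdha3, Pcdhga9, Pcdha7 and Pcdhga5, against 6.74% of all genes, and it called 0 of 19 beta genes (2 of 19 at an unadjusted p under 0.05, and DESeq2 called 1 of all 54 members and 16.1% of all genes).

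Between ZT8 and ZT0 edgeR called 7 of 54 members, all lower at ZT8, where 18% of all genes were called, 9.02% lower and 8.95% higher. All 7 had no count in any ZT8 library. Pcdha12, an alpha isoform, had 91.2, 374 and 82.4 counts at ZT0 (edgeR adjusted p = 0.0161), and Pcdha3 had 122, 129 and 333 counts (edgeR adjusted p = 0.00987). Pcdhga3, a gamma A isoform, had 180, 187 and 197 counts (edgeR adjusted p = 0.0299). For these 3 genes the means at ZT0 were 186-, 199- and 192-fold above a floor of 3 counts over the ZT8 libraries. That floor covers counting error alone and not how shared reads were divided among members. These values are therefore no lower limits on a difference in expression. Pcdha9 (208, 0 and 123 counts) and Pcdhga7 (102, 0 and 233 counts) had a ZT0 library at 0 as well.

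These 5 genes lie in clusters whose sums overlapped between the times once the 3 entries were counted. The alpha sum of the ZT0 replicates was 80.2, 94.3 and 86.5 CPM and that of the ZT8 replicates 77.6, 89.7 and 71.7 CPM, and the gamma sum with the 3 entries was 122, 125 and 115 CPM and 132, 123 and 139 CPM. The gamma members alone had 106, 45.8 and 108 CPM in the ZT0 libraries and 63.9, 21.5 and 7.94 CPM in the ZT8 libraries. The 3 entries had 15.9, 79.6 and 7.58 CPM and 68, 102 and 131 CPM in the same libraries. The median log2 fold change of the 21 gamma members tested was -7.26, a value that depends on genes at 0, against -0.00296 for all genes. For the 19 beta genes it was -0.04.

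Of the 19 beta genes tested, 2 were among the 7, and their reads were their own. Pcdhb8 had 12, 13 and 10 counts at ZT0, or 0.747, 1.19 and 0.475 CPM, and 0 counts in all 3 ZT8 libraries (edgeR adjusted p = 0.0209). Its pooled ZT0 level was 11.9-fold above a floor of 3 counts over the ZT8 libraries. Pcdhb11 had 2, 1 and 15 counts at ZT0 and 0 in all 3 ZT8 libraries (edgeR adjusted p = 0.0196), and its pooled ZT0 level was 6.13-fold above that floor. These folds leave out the spread among replicates, so they are no lower limits on a difference in expression. The difference of Pcdhb11 rests for the most part on ZT0 replicate 3. The ZT8 libraries held 14677638, 19064826 and 16360462 counts, within the range of the others. On the first principal component they lay at 4.71, 42.7 and 29.5, the latter 2 being the highest of all libraries, and the ZT0 libraries at -21.6, -8.51 and -18, and the part of this in the calls was not tested. Their beta sums, at 65.4, 58.6 and 57 CPM, lay on both sides of those of the ZT0 libraries, at 62, 62.1 and 63.1 CPM.

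Between ZT16 and ZT8, a comparison that uses the same ZT8 libraries, edgeR again called 7 members, all higher at ZT16, against 16.9% of all genes called, 9.11% higher and 7.8% lower. Pcdhb11 had 6, 23 and 8 counts at ZT16 (edgeR adjusted p = 0.00849), and Pcdhb8 had 10, 10 and 2 counts (edgeR adjusted p = 0.0366). Their pooled ZT16 levels were 14.1- and 8.41-fold above a floor of 3 counts over the ZT8 libraries, again without the spread among replicates. The others were Pcdha12, Pcdha3, Pcdha1, Pcdhga9 and Pcdhga3, and of these Pcdha12, Pcdhga9 and Pcdhga3 were at 0 in ZT16 replicate 3 and Pcdha1 at 0.04 counts there. ZT16 replicate 3 had 29 alpha and gamma members at 0, against 14 and 2 in the other replicates of ZT16. The summed oligodendrocyte markers ranged over 1830 to 2230, 1750 to 2010 and 1970 to 2910 CPM in the ZT0, ZT8 and ZT16 libraries, and the cholinergic markers over 4420 to 4840, 4270 to 4730 and 4680 to 5080 CPM. Their part in these calls was not tested.

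Between ZT20 and ZT8 edgeR called 0 of 54 members and 0% of all genes. At an unadjusted p under 0.05 there were 19 members (35.2%, of which 6 were alpha, 2 beta and 11 gamma) against 22.3% of all genes, and DESeq2 called 5 members and 7.15% of all genes.

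Leaving out a single library changed how many members were called, in most cases together with the share of all genes called, which is given in parentheses. Without ZT8 replicate 2, edgeR called 0 members for ZT8 against ZT0 (1.72% of all genes) and 0 for ZT16 against ZT8 (0.545%). Without ZT8 replicate 3 it called 1 member for each (6.99% and 5.84% of all genes). For ZT8 against ZT0 it called 3 members without ZT0 replicate 1 (3.99%) or ZT0 replicate 3 (7.05%), and 11 without ZT8 replicate 1 (24.9%) or ZT16 replicate 3 (18.8%). For ZT16 against ZT8 it called 0 without ZT16 replicate 2 (0.45%), 2 without ZT16 replicate 1 (5.53%), 11 without ZT12 replicate 3 (16%) and 16 without ZT16 replicate 3 (21.2%). For ZT20 against ZT8 it called 5 without ZT8 replicate 1 (14.4%) or ZT16 replicate 3 (3.59%), 4 without ZT20 replicate 3 (1.59%) and 1 without ZT4 replicate 1 (0.00625%) or ZT4 replicate 2 (0.0125%).

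The tests over all time points also depended on single libraries. The time point test called 0 members without ZT0 replicate 1, ZT0 replicate 3, ZT16 replicate 1 or ZT8 replicate 3 (0.494%, 0.675%, 0.769% and 0.0314% of all genes), 1 without ZT8 replicate 2 (0.357%), 2 without ZT4 replicate 2 or ZT12 replicate 2 (1.04% and 3.41%), and 3 without ZT4 replicate 3, ZT16 replicate 2 or ZT20 replicate 1 (3.3%, 2.67% and 3.74%). It called 8 without ZT12 replicate 3 or ZT20 replicate 3 (6.19% and 7.49%), 13 without ZT8 replicate 1 (15.2%) and 15 without ZT16 replicate 3 (12.8%). The cosinor called 8 without ZT12 replicate 3 (10.1%), 7 without ZT20 replicate 3 (16.6%), 1 without ZT0 replicate 3 or ZT20 replicate 2 (1.33% and 5%), and 2 without replicate 1 of ZT0, ZT4 or ZT8 (4.2%, 4.65% and 6.95%). It called 0 without replicate 1 of ZT12, ZT16 or ZT20, replicate 2 of ZT0, ZT4, ZT8 or ZT16, or replicate 3 of ZT4 or ZT8, where 0.0124% to 0.0808% of all genes were called.

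**Figure D5:**
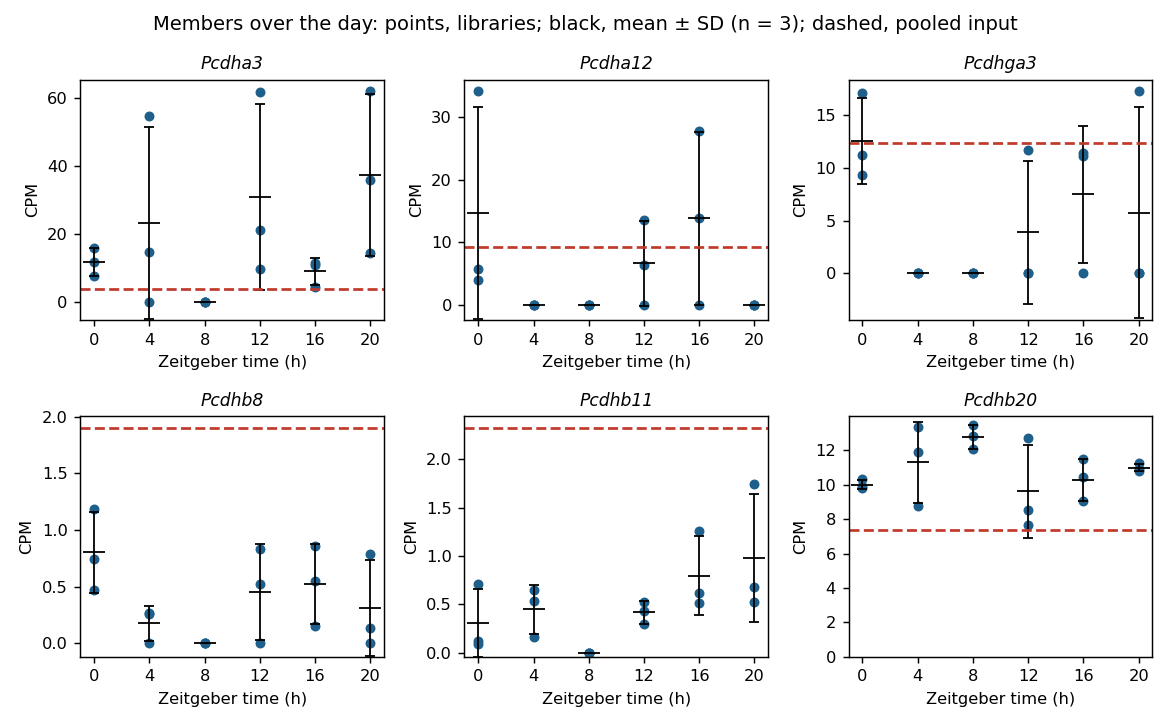
CPM of 6 members (vertical axes) against Zeitgeber time in hours, with each immunoprecipitate as a point, mean ± SD of 3 libraries in black and the pooled input as a dashed line. Pcdha3, Pcdha12 and Pcdhga3 have replicates at 0 beside replicates well above 0, as Pcdha3 does at ZT4 (0, 54.7 and 14.5 CPM). Pcdhb8 and Pcdhb11 are at 0 in all 3 ZT8 libraries, and Pcdhb20 stays above its input value of 7.35 CPM.

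The beta genes with the most counts varied least over the 18 immunoprecipitates, with coefficients of variation of 15.7% for Pcdhb20, 16.6% for Pcdhb17 and 19.6% for Pcdhb22, against at least 100% for every alpha gene and at least 85.1% for every gamma gene. The biological coefficient of variation fitted by edgeR, which measures the spread among replicates of a time point, was 15.2% for Pcdhb20, 17.5% for Pcdhb17 and 18.7% for Pcdhb22, near the common value of 19.2% over all genes, and its range was 15.2% to 77.5% over the 19 beta genes tested. It was 83.6% to 189% over the alpha genes and 116% to 223% over the gamma genes. The ZT0 libraries had 9.84, 9.94 and 10.3 CPM of Pcdhb20 and the ZT8 libraries 13.5, 12.9 and 12.1 CPM. Neither the time point test (edgeR adjusted p = 0.591) nor the cosinor (edgeR adjusted p = 0.6) called Pcdhb20.

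The genes that act on or with the clustered protocadherins were counted over fixed lists. Of 11 regulators of promoter choice, 3 were depleted against the input (Nipbl, Stag1 and Stag2), 0 were enriched and the median log2 ratio was -0.8. Over all genes, 22.9% were depleted and 13.8% enriched. Smc1a, a cohesin ring subunit, had the highest ratio (log2 0.97, 101 ± 8.19 CPM, all 18 above), followed by Setdb1, a histone methyltransferase that is known to hold the cluster in check (0.35, all 18 above). Dnmt3b, a DNA methyltransferase of protocadherin promoters, had the lowest ratio (-1.74, on 12 input counts), followed by Stag2, a cohesin subunit (-1.51). Of the 10 regulators tested, edgeR called 0 in any comparison over the day (1 at an unadjusted p under 0.05 in each).

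The 10 non-clustered protocadherins, single genes of the same family outside the clusters, had a median log2 ratio of -0.77, with 3 depleted and 0 enriched. The shares of all genes were 22.9% and 13.8%. Pcdh1 (59.2 ± 7.67 CPM, log2 ratio 0.16) and Pcdh17 (61.2 ± 6.95 CPM, 0.01) were highest, and Pcdh18 (-2.5) and Pcdh11x (-1.2) lowest. Pcdh10 was called by the time point test (edgeR adjusted p = 0.0428), was lower at ZT8 than at ZT0 (log2 fold change -0.44 ± 0.13 SE, edgeR adjusted p = 0.0258) and higher at ZT16 than at ZT8 (0.58 ± 0.13, edgeR adjusted p = 0.00905). Pcdh19 was higher at ZT8 than at ZT0 (0.74 ± 0.22, edgeR adjusted p = 0.0259).

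Of the 7 processing and signalling partners, Ret, the receptor of the GDNF family in motor neurons, was enriched (461 ± 78 CPM against 122 CPM, log2 ratio 1.92) and Adam10, the protease that sheds protocadherins, was depleted (-1.53). Wasf1, a subunit of the actin-regulating complex that protocadherin alpha tails bind, stood at 0.14 and Ptk2, the focal adhesion kinase that the tails inhibit, at -0.69. Ptk2 was higher at ZT8 than at ZT0 (log2 fold change 0.51 ± 0.17 SE, edgeR adjusted p = 0.0423) and lower at ZT16 than at ZT8 (-0.54 ± 0.17, edgeR adjusted p = 0.0326), and Ret was lower at ZT8 than at ZT0 (-0.43 ± 0.15, edgeR adjusted p = 0.0482). None of the 7 was called by the time point test (3 at an unadjusted p under 0.05) or by JTK_Cycle.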

How the data were processed

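Libraries came from a stranded mRNA kit. For the deposited table the authors aligned paired-end reads of 150 bases to mm10 with STAR 2.7.5 and had RSEM estimate expected counts for each gene, with no normalization. The study names an Ensembl annotation, and RefSeq for GRCm38.p6 lists the symbols of all members. The transcript models behind the values are uncertain, and the exon models of RefSeq were not used here. The members and gene lists were chosen with earlier results of these data known, and a member was taken by its symbol alone, not by a measured value.

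CPM used TMM over 19 libraries on unrounded expected counts. For count models the expected counts were rounded, genes were kept with filterByExpr over time points, and the quasi-likelihood test of edgeR 4.0.16 (R 4.3.3) was fitted on the 18 immunoprecipitates together. Its p-values were adjusted after Benjamini and Hochberg over 15572 genes and called at 0.05. JTK_Cycle used log2 CPM with a prior count of 2, periods of 20, 24 and 28 h and Bonferroni adjustment over 18 templates within a gene. DESeq2 1.42.0 was an alternative. The filter for the input comparison left 17901 genes. Floors were 3 counts. JTK_Cycle and the edgeR tests were run on simulated data first, but the DESeq2 and permutation tests were not. Reads carry no molecular identifiers, so intervals and floors cover counting error only.

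Genes were named by rule: the C-type members, in each cluster the 3 highest and 2 lowest mean levels and, among members with at least 20 input counts, the 2 that stood highest and the 2 that stood lowest against the input, all members called by a test, and of the lists all called genes and the 2 highest and lowest ratios. Other genes were named after their values were seen, and 1 gene of the lists is not reported here. Transcripts were matched to GENCODE M21 by RefSeq accession, except Pcdhgb8, which was matched by symbol. No promoter or protein sequence of the members was used here. The 3 replicates of a time point are biological replicates per the labels.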

Additional observations from a re-analysis of the deposited data

How the results depend on the processing

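Counts of members called (0 by JTK_Cycle, 4 by the cosinor, 5 by the time point test, 7 for ZT8 against ZT0, 7 for ZT16 against ZT8 and 0 for ZT20 against ZT8) stayed within 1.5 times with DESeq2 size factors and library totals and, for the edgeR tests, with counts not rounded. A filter of at least 10 counts gave 15 for the time point test (6.64% of all genes), 11 for ZT8 against ZT0 (12.5%), 12 for ZT16 against ZT8 (11.8%) and 2 for ZT20 against ZT8 (0.744%). Keeping all genes with 1 count or more gave 14 for the cosinor (9.18%) and 36, 29, 29 and 23 for these (10.8%, 12.1%, 11.7% and 6.41%). The DESeq2 test gave 0, 1, 11, 11 and 5 in the same order (14.4%, 16.1%, 21.4%, 20.3% and 7.15% of all genes), and 3 of the 11 members for ZT8 against ZT0 and 5 of the 11 for ZT16 against ZT8 were also called by edgeR. With the oligodendrocyte score the cosinor called 1 member (0.0321% of all genes) and the time point test 2 (1.02%), of which 1 was also called without it. JTK_Cycle called 0 members under each alternative. Leaving out a library or a replicate number gave 0 to 8 for the cosinor, 0 to 15 for the time point test, 0 to 11 for ZT8 against ZT0, 0 to 16 for ZT16 against ZT8, 0 to 5 for ZT20 against ZT8 and 0 for JTK_Cycle. The cause was not tested for any of these changes.

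Deviations from the time point means correlated between libraries of the same replicate number at -0.151 to 0.176 (4 of 45 pairs above 0.1). Between libraries of different numbers they correlated at -0.21 to 0.183 (9 of 90 pairs above 0.1). No pairing by number was seen in these values, and none was used in the main fits. With a replicate block the counts were 0, 3, 5, 7, 6 and 0 (2.29%, 4.97%, 6.45%, 17.7%, 16.6% and 0.045% of all genes). For JTK_Cycle the share of all genes was 0.0385% without the block. In the middle 4 results 2, 3, 6 and 4 genes were also called without the block.

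Against the input, 0 members were enriched and 18 depleted. The ratio of means alone gave 3 and 31, since it asks less of single libraries, and leaving out a library gave 0 and 18 to 20. With library totals the alpha ratio was 0.604 and the beta ratio 0.7, and log2 ratios changed sign for Pcdhb7 (-0.205), Pcdhb10 (-0.116) and Pcdhb22 (-0.075). Leaving out a library gave 0.752 to 0.766 for alpha, 0.871 to 0.887 for beta and 0.181 to 0.203 for gamma. The gamma ratio of 0.193 became 0.401 with the 3 alpha-to-gamma entries, an alternative chosen after seeing the data. The median level of the 21 beta genes with a count, taken in each library and averaged over the 18, was 0.591 CPM per kb of RefSeq length, 0.901 per kb of coding length, which is shorter, and 0.472 per kb of GENCODE transcript length, chosen after seeing the data. Beta genes with under 20 input counts and single alpha and gamma values are limited by depth and by shared reads.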
